A study of Mus musculus with 8 samples.

Results

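The genes described here are the cytosolic sensors of foreign or misplaced nucleic acid and their adaptors. The probes were found by gene name, and the set of genes was chosen with earlier results of these data known. It holds Ddx58, Ifih1, Dhx58, Mavs (listed under its older name D430028G21Rik), Tmem173, Mb21d1 (listed as E330016A19Rik, now called Cgas), Zbp1 and Trex1. Of these 8 genes, 7 were represented by 9 of the 25697 probes, and Tmem173 was not analysed here. Of the 9 probes, 7 were detected on every array, and they read 6 of the 8145 genes tested, while the single Ifih1 probe and 1 of the Zbp1 probes were detected on 0 of the 8 arrays.

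The samples were RAW264.7 cells, a macrophage line of BALB/c origin, 24 h after transfection with HiPerfect reagent. One group received scrambled control siRNA and the other an siRNA against Ypel5, with 4 Illumina bead arrays in each, so that all 8 samples were transfected with a synthetic double-stranded RNA and no untransfected cells were compared. The Ypel5 siRNA group rests on a single siRNA sequence. By its title, the study concerns Ypel5 in the restraint of TBK1, IKBKE and interferon-beta. The comparison asks whether the transcripts of the sensors that act upstream of these kinases differed between the groups.

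RIG-I (Ddx58) and MDA5 (Ifih1) bind viral double-stranded RNA in the cytosol and signal through MAVS, a protein of the mitochondrial outer membrane, and LGP2 (Dhx58) tunes both. cGAS (Mb21d1) binds cytosolic DNA and makes the second messenger that activates the adaptor STING, ZBP1 binds nucleic acid in the left-handed Z form and can start necroptosis, and the nuclease TREX1 degrades DNA that would otherwise reach cGAS. MAVS and STING both activate TBK1, which leads to interferon-beta, and interferon in turn is known to induce several of the sensor genes.

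The Ypel5 probe was detected on 0 of the 8 arrays, so the arrays do not show whether the siRNA lowered its target, and every direction given is that of the libraries labelled Ypel5 siRNA relative to the libraries labelled scrambled. Between 11249 and 11612 probes were detected per array, and the median intensity before normalization was higher in the Ypel5 siRNA group by less than would pass an exact test (209.5 ± 14.6 against 189 ± 6.26, SD, n = 4 each, exact permutation p = 0.0857). Of 9 macrophage markers on the array 8 were detected on all 8 arrays and Itgam on 1, and 0 of the 8 differed by limma's adjusted p between the groups. Before normalization the summed intensity of the 9 markers, Itgam included, ran from 94958 to 106398 on scrambled and from 97372 to 116230 on Ypel5 siRNA arrays. Among markers of other cell types, all 5 fibroblast, all 3 measured B cell and all 3 erythroid genes were detected on 0 arrays, Cd3e, Cd3g and Cd2 of the T cell list likewise, Lck was detected on all 8 and Cdh1 on 5. Cd3d was detected on 1 array, as were Klrb1c of the NK cell list and Pecam1 and Kdr of the endothelial list. Nkg7 of the NK cell list was detected on 2, and Ncr1, Cdh5, Krt8 and Krt18 on 0.

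Of the 6 measured genes, 2 rose after the Ypel5 siRNA and 0 fell. These were Ddx58, the RNA sensor, and Trex1, the nuclease that removes cytosolic DNA, with rises of 1.45-fold and 1.36-fold. Dhx58, Mavs, Mb21d1 and Zbp1 did not pass the test, and their confidence intervals reached no further than a 1.32-fold higher level (Dhx58) or a level of 0.812 times the control (Mb21d1). Over all genes tested, 4.96% were called in either direction, 2.96% higher and 2.00% lower, at a limma Benjamini-Hochberg adjusted p under 0.05. The median log2 difference of the 6 genes was 0.09, against 0.00083 for all 8145, and 4 of the 6 were above 0. The labels do not say whether the replicates were separate cultures, so the p-values reflect the spread of these arrays alone, and part of it may be technical. A difference in transcript level in such bulk RNA cannot be told apart from a difference in the number of cells that express the gene.

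**Figure D1:**
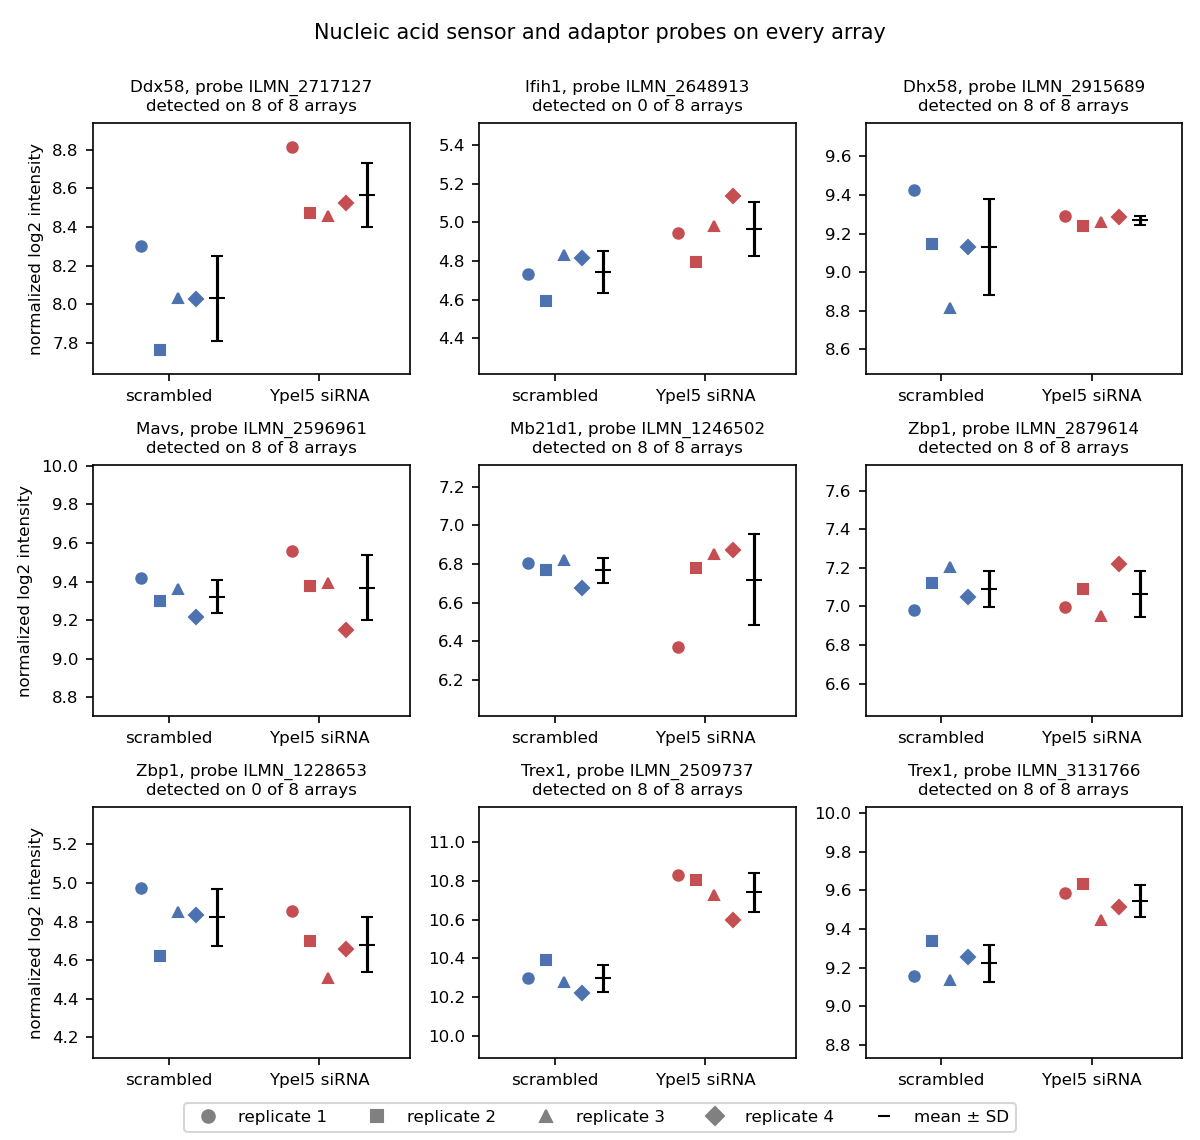
Normalized log2 intensity of each probe on the 4 scrambled and the 4 Ypel5 siRNA arrays, with symbols for the replicate number and bars for the mean ± SD; every panel spans the same number of log2 units. The groups do not overlap for Ddx58 and for both Trex1 probes, and the Mb21d1 reading of 6.37 on Ypel5 siRNA replicate 1 lies below the other 3 of its group.

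Ddx58 encodes RIG-I, the helicase that recognises viral RNA carrying a 5′ triphosphate. Its probe ILMN_2717127 gave log2 intensities of 8.30, 7.76, 8.03 and 8.03 on scrambled replicates 1 to 4. On the Ypel5 siRNA arrays the readings were 8.81, 8.47, 8.46 and 8.52. Every Ypel5 siRNA array thus lay above every scrambled array, with a gap of 0.15 between the nearest values. Replicate 1 was the highest array of each group, and scrambled replicate 2 the lowest of all. Ypel5 siRNA replicate 1 stood off from the nearest array of its group by 0.805 of the group's range, and without it the rise was log2 0.45 (adjusted p = 0.0907). The means were 8.03 ± 0.22 and 8.57 ± 0.17 (SD, n = 4 each), a rise of log2 0.54 (SE 0.12, 95% confidence interval 0.25 to 0.82, limma adjusted p = 0.0465, two-sided exact permutation p = 0.0286, the smallest that 4 against 4 arrays can give). Over all genes tested the groups did not overlap in 15.2%, of which the Ypel5 siRNA arrays were above in 7.92% and below in 7.31%. Before normalization the same probe read from 366 to 450 on scrambled and from 491 to 742 on Ypel5 siRNA arrays. Such a separation before normalization was not particular to the genes that rose. The uncalled Mavs (702 to 790 against 793 to 1112) and Mb21d1 (246 to 263 against 271 to 313) showed it too. Values of Dhx58 and Zbp1 before normalization overlapped between the groups. The call was near the threshold: leaving out scrambled replicate 1 kept it (adjusted p = 0.0334), and leaving out any other single array ended it, with adjusted p from 0.0705 to 0.102. Without both replicate 1 arrays the rise was log2 0.54 and the adjusted p 0.0540.

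The promoter window of Ddx58 is shown because this gene rose, beside that of its sister sensor Ifih1 and 1 of the windows of Trex1. Each window runs from 250 bases before to 50 bases after an annotated start, is taken from RefSeq on GRCm38.p6 and is written 5′ to 3′ on the gene's strand. Capitals mark matches, on either strand, to GAAANNGAAA, the core of the interferon-stimulated response element, or to the closer spaced GAAANGAAA, which was added after the Ddx58 window had been read.
Ddx58 promoter: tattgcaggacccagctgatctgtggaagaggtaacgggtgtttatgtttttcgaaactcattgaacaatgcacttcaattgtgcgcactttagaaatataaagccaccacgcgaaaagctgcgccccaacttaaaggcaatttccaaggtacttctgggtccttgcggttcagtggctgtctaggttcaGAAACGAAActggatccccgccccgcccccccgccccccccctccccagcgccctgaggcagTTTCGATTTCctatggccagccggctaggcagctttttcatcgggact
Ifih1 promoter: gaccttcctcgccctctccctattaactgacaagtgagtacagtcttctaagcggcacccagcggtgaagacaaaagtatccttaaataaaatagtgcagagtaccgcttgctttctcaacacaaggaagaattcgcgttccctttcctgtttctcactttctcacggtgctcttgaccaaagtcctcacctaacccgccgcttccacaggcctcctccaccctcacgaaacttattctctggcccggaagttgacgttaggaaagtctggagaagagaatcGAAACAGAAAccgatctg
Trex1 promoter: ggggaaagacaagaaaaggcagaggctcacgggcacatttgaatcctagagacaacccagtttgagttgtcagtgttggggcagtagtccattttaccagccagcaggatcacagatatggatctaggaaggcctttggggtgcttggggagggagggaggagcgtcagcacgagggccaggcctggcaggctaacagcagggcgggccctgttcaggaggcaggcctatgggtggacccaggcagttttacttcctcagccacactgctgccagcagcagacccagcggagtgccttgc
The Ddx58 window lies at chr4:40239776-40240075 on the minus strand, that of Ifih1 at chr2:62646206-62646505 on the minus strand and that of Trex1 at chr9:109059202-109059501 on the minus strand. Ddx58 holds GAAACGAAA with its first base 60 bases before the start, and TTTCGATTTC, a match to the wider motif on the opposite strand, beginning 2 bases after the start base. In Ifih1 the bases GAAACAGAAA begin 32 bases after the start base. Among 32851 windows of the same length 3.44% hold the wider motif, 3.17% the closer spaced one and 6.27% either. The 2 matches in Ddx58 do not overlap. Windows were at hand for 5 of the 8 genes, and those of Mavs, Mb21d1 and both of Trex1 hold neither motif. The other Trex1 window, which reaches into the end of the neighbouring gene Atrip, is not printed. These matches describe the letters only.

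Ifih1 encodes MDA5, the sensor of long double-stranded RNA. Its probe ILMN_2648913 was not well above background on any array, with detection p between 0.154 and 0.877, so no fold is given. The log2 readings were 4.73, 4.59, 4.83 and 4.81 on scrambled and 4.94, 4.80, 4.98 and 5.13 on Ypel5 siRNA arrays, and the groups overlapped (two-sided exact permutation p = 0.0857). In the limma fit on all probes its adjusted p was 0.406. Whether this sensor's transcript differed was not detectable with this probe.

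Dhx58 encodes LGP2, a helicase without signalling domains that modulates its relatives RIG-I and MDA5. It read 9.43, 9.15, 8.82 and 9.13 on scrambled replicates 1 to 4 and 9.29, 9.24, 9.26 and 9.29 on the Ypel5 siRNA arrays. The Ypel5 siRNA arrays agreed closely, while scrambled replicate 1 lay above all of them and the other 3 scrambled arrays below, replicate 3 by the most. The difference of log2 0.14 (SE 0.11, 95% confidence interval -0.12 to 0.40) did not pass (limma adjusted p = 0.537, two-sided exact permutation p = 0.429). Without scrambled replicate 1 it was log2 0.24 (adjusted p = 0.202), and without scrambled replicate 3 it was log2 0.03.

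Mavs, which encodes the adaptor shared by RIG-I and MDA5, read 9.42, 9.30, 9.36 and 9.22 on scrambled arrays. After the Ypel5 siRNA it read 9.56, 9.38, 9.39 and 9.15. The Ypel5 siRNA group held both the highest and the lowest of the 8 values. The difference was log2 0.05 (SE 0.088, 95% confidence interval -0.16 to 0.25, limma adjusted p = 0.810), which in fold terms spans 0.898 to 1.19. It turned to log2 -0.02 without Ypel5 siRNA replicate 1.

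Mb21d1 encodes cGAS, the cytosolic DNA sensor. Its probe ILMN_1246502 read 6.80, 6.77, 6.82 and 6.68 on scrambled replicates 1 to 4. On the Ypel5 siRNA arrays it read 6.37, 6.78, 6.85 and 6.87. In these normalized values Ypel5 siRNA replicate 1 was the lowest of all 8 arrays, while replicates 3 and 4 of that group were the highest. Before normalization the probe read 287 on Ypel5 siRNA replicate 1, above the scrambled arrays (246 to 263). That array also had the highest median intensity (226). Its reading was the lowest of the 8 in the normalized values and not before normalization, and the cause was not tested. The difference was log2 -0.05 (SE 0.11, 95% confidence interval -0.30 to 0.20, limma adjusted p = 0.844). Without Ypel5 siRNA replicate 1 it was log2 0.07 (adjusted p = 0.572), and with one median per array in place of quantiles it was log2 0.02 with that array included. In this last setting the median log2 difference over all genes was 0.037, against 0.00083 in the main setting, so Mb21d1 stayed below the median gene.

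Zbp1, the Z-form nucleic acid sensor whose transcript interferon is known to induce, was read by 2 probes. The detected probe ILMN_2879614 gave 6.98, 7.12, 7.20 and 7.05 on scrambled and 7.00, 7.09, 6.95 and 7.22 on Ypel5 siRNA arrays. The Ypel5 siRNA group held both the lowest and the highest of the 8 values, and the groups overlapped, with a difference of log2 -0.03 (SE 0.074, 95% confidence interval -0.20 to 0.14, limma adjusted p = 0.884). In fold terms this interval spans 0.873 to 1.11. The probe ILMN_1228653 was detected on 0 arrays, with readings between 4.51 and 4.98, and gives no fold.

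Trex1 encodes the main 3′ to 5′ DNA exonuclease of the cytosol, which keeps cGAS from sensing the cell's own DNA. The brighter probe ILMN_2509737 read 10.30, 10.39, 10.28 and 10.22 on scrambled replicates 1 to 4. After the Ypel5 siRNA the readings were 10.83, 10.81, 10.73 and 10.60. All 4 Ypel5 siRNA arrays lay above all 4 scrambled arrays, and the gap of 0.21 exceeded the range of the scrambled group. The means were 10.30 ± 0.070 and 10.74 ± 0.10 (SD, n = 4 each), a rise of log2 0.44 (SE 0.065, 95% confidence interval 0.30 to 0.59, limma adjusted p = 0.00946, two-sided exact permutation p = 0.0286). Before normalization the values ran from 1207 to 1443 on scrambled and from 1752 to 2429 on Ypel5 siRNA arrays. The uncalled Mavs and Mb21d1 were also apart before normalization.

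The dimmer Trex1 probe, ILMN_3131766, moved the same way. It read 9.15, 9.34, 9.14 and 9.26 on scrambled and 9.59, 9.63, 9.45 and 9.51 on Ypel5 siRNA arrays, without overlap. Its difference was log2 0.32 (1.25-fold, two-sided exact permutation p = 0.0286), and in a fit over all 25697 probes its limma adjusted p was 0.123, against 0.0403 for the brighter probe. In that fit 0.506% of probes were called higher. The Trex1 rise passed in all 8 fits with a single array left out, at log2 0.42 to 0.49 with adjusted p up to 0.0341, and lost it without both replicate 1 arrays (log2 0.42, adjusted p = 0.0750). RefSeq places Trex1 on mouse chromosome 9 (109057932 to 109059723, GRCm38.p6) inside the read-through gene Atrip-trex1, so its probes could also read that transcript. Atrip, the upstream partner of the read-through, was at log2 -0.21 (limma adjusted p = 0.164).

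The genes were also compared with each other, by testing in each of their 15 pairs whether the change of one differed from the change of the other. Trex1 changed by log2 0.40 more than Mavs (SE 0.063), by 0.49 more than Mb21d1 (SE 0.16) and by 0.47 more than Zbp1 (SE 0.11), each with an exact permutation p of 0.0286 and 0.0857 after adjustment over the pairs. The same p-values held for Ddx58 against Mavs (0.49, SE 0.12) and Mb21d1 (0.58, SE 0.23), while Ddx58 against Zbp1 (0.56, SE 0.18) had an exact p of 0.0571. Neither of the genes that rose was set apart from Dhx58 at an unadjusted 0.05. Ddx58 minus Dhx58 was log2 0.40 (SE 0.14) and Dhx58 minus Trex1 log2 -0.31 (SE 0.14), each with an exact permutation p of 0.0571. The rises of Ddx58 and Trex1 differed by 0.09 (SE 0.15, exact permutation p = 0.629). After adjustment 0 of 15 pairs were under 0.05, with 5 at an unadjusted exact p under 0.05. The design allowed no other outcome unless 9 or more pairs reached the smallest exact p, and 8 pairs set a called gene against an uncalled one, so the adjusted values do not show that the changes were alike.

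Across the 8 arrays Ddx58 and Trex1 went together (Pearson r = 0.80), but around their group means they did not (r = -0.0073). Mavs and Trex1 went together around the group means (r = 0.75). Such correlations over 8 arrays share the group difference and the normalization of each array and are descriptions only. The genes whose values over the 8 arrays were most like those of Ddx58 were Sphk2 (Pearson r = 0.97), Slc5a6 (0.96) and Slc16a3 (0.96). For Trex1 they were Samsn1 (0.98), Dus1l (0.98) and Fcgr3 (0.98). Of these 6 genes Samsn1 (log2 0.45, limma adjusted p = 0.00874), Fcgr3 (log2 0.87, adjusted p = 0.00294) and Slc16a3 (log2 0.24, adjusted p = 0.0437) were called higher. Genes nearest to the uncalled members were Polr3a, C1qc and Cbx8 for Dhx58, Ambra1, Brcc3 and Dtl for Mavs, BC005624, Ssrp1 and Pabpc1 for Mb21d1, and Lcn8, LOC100044170 and Ltv1 for Zbp1, with Pearson r between 0.90 and 0.96 over the 8 arrays.

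**Figure D2:**
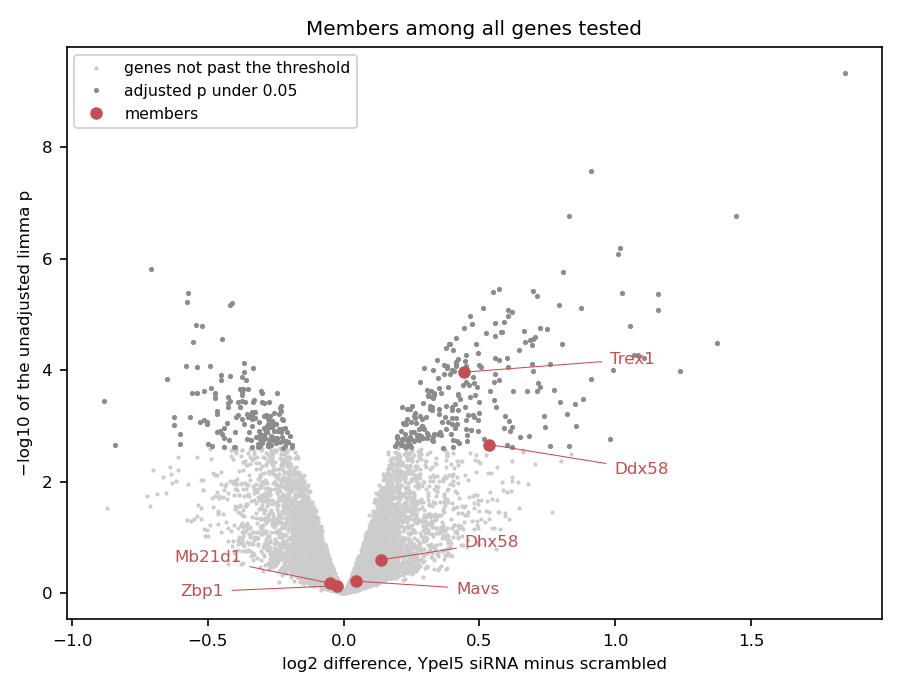
Log2 difference between the groups against −log10 of the unadjusted limma p for the 8145 genes tested, with the 6 measured sensor and adaptor genes labelled. Ddx58 and Trex1 lie among the genes called higher, and Dhx58, Mavs, Mb21d1 and Zbp1 lie near the origin.

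In size, both rises were above those of most genes and well below the largest of this experiment. Ddx58 had a larger log2 difference than 98.6% of the 8145 genes and Trex1 a larger one than 97.7%. Ordered by p among the genes with a difference above 0, Trex1 was the 78th and Ddx58 the 230th. The antiviral gene Rsad2, the largest rise of the series, went up by log2 1.85 and Ddx58 and Trex1 by log2 0.54 and 0.44.

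Proteins that act with these sensors were taken as a list of 91 genes in 7 subgroups, of which 85 were on the array and 74 measured. Of the 74, 6 rose, 0 fell and 68 did not pass, and the median log2 difference was 0.06 with 45 above 0. The background is again 2.96% of all genes called higher and 2.00% lower. The 6 were Irf7, Usp18, Adar, Nlrx1, Mlkl and Samhd1. Over all genes tested 50.2% had a difference above 0 and 21.6% an unadjusted p under 0.05.

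Downstream of the adaptors, 1 of 12 kinase and transcription factor genes rose. Irf7, the factor that amplifies interferon production, went from 7.95 ± 0.061 to 8.57 ± 0.11 (SD, n = 4 each), a rise of log2 0.62 (SE 0.065, limma adjusted p = 0.00301). Without background correction the rise was log2 0.40. Its scrambled arrays reached at most 8.02 and its Ypel5 siRNA arrays at least 8.46. Rela, the NF-kB subunit p65, was at log2 0.13 (adjusted p = 0.219).

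Among regulators of MAVS and STING, 1 of 12 and 1 of 14 measured genes rose. Nlrx1, a mitochondrial protein known as a brake on MAVS, went up by log2 0.33 (SE 0.055, limma adjusted p = 0.0153) on its brightest probe. Its other 2 probes were at log2 0.22 and -0.33 with overlapping groups, and with the mean of the probes Nlrx1 was at log2 0.07 (adjusted p = 0.512). The probe at log2 -0.33 was dim and detected on only 4 arrays, with means of 5.67 on scrambled and 5.34 on Ypel5 siRNA arrays. That at log2 0.22 was detected on 8. Usp18, which removes ISG15 from proteins and dampens interferon signalling, rose by log2 0.57 (SE 0.087, adjusted p = 0.0115), and its second probe read log2 0.64 without overlap. March5, a mitochondrial ubiquitin ligase, was at log2 0.21 (adjusted p = 0.108), and Sec61b, a subunit of the endoplasmic reticulum translocon, at log2 -0.19 (adjusted p = 0.121).

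In the subgroup of nucleases and RNA editing, to which Trex1 would belong, 2 of 7 measured genes rose. Adar, the enzyme that edits double-stranded RNA so that MDA5 does not sense it, rose by log2 0.41 (SE 0.058, limma adjusted p = 0.00874), its scrambled arrays reading 8.90 to 9.05 and its Ypel5 siRNA arrays 9.36 to 9.52. Of its other probes 1 read log2 0.29 and 1 read log2 -0.06, and with the mean of the probes Adar was at log2 0.22 (adjusted p = 0.0615). Samhd1, which hydrolyses deoxynucleotide triphosphates, rose by log2 0.23 (SE 0.046, adjusted p = 0.0295), and kept its call in 2 of the 8 fits with a single array left out (adjusted p 0.0385 to 0.0786). Its second probe read log2 0.45 with overlapping groups, and with the mean of the probes Samhd1 was at log2 0.34 (adjusted p = 0.0846).

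Of 5 genes that act with ZBP1 in cell death 1 rose, and all 5 were above 0, as were 50.2% of all genes. This was Mlkl, the executioner of necroptosis, at log2 0.31 (SE 0.067, limma adjusted p = 0.0401), and kept its call in 1 of the 8 fits with a single array left out (adjusted p 0.0360 to 0.0991). Fadd, the adaptor of caspase-8, was at log2 0.21 (adjusted p = 0.0663). Among 16 other cytosolic sensors 0 passed limma, with 2 at an unadjusted p under 0.05: Eif2ak2, the kinase PKR, at log2 0.23 (adjusted p = 0.0723) and Aim2, the DNA sensor of the inflammasome, at log2 0.17 (adjusted p = 0.101). Both had groups that did not overlap, as did 15.2% of all genes tested in either direction and 7.92% with the Ypel5 siRNA arrays above. The 2 of 16 are a smaller share than the 21.6% of all genes at such a p. Eif2ak2 and Fadd passed limma in other settings, among them no background correction (adjusted p = 0.0264 and 0.0365) and both tables of the authors' log2 values. They also passed with a stricter filter, detection p under 0.01 on every array (adjusted p = 0.0496 and 0.0455). With a robust variance trend the adjusted p was 0.00862 and 0.0348. Of 8 regulators of the RNA sensors 0 passed limma, with 2 at an unadjusted p under 0.05, the deubiquitinase gene Cyld at log2 0.17 (adjusted p = 0.141) and the ligase gene Mex3c at log2 0.14 (adjusted p = 0.194), a share near that of all genes.

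**Figure D3:**
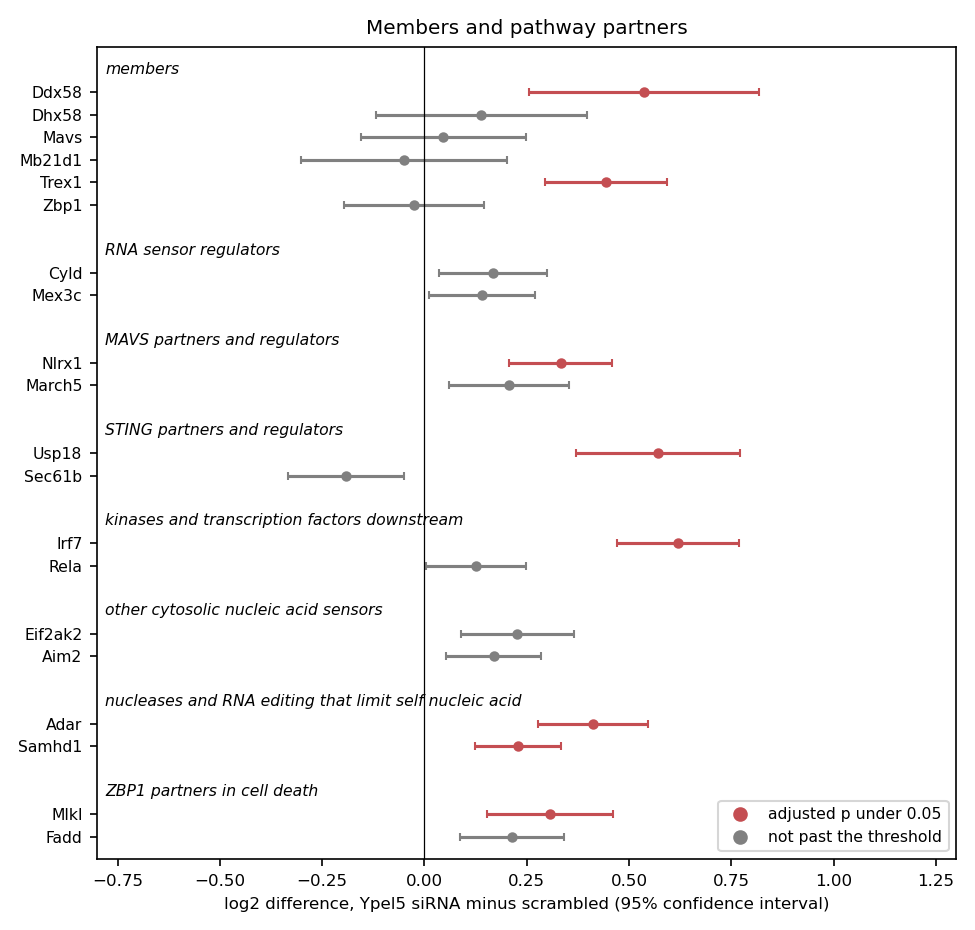
Log2 difference between the groups with its 95% confidence interval for the 6 measured sensor and adaptor genes and for the 2 genes with the smallest p of each partner subgroup. Red marks a limma adjusted p under 0.05, which Ddx58, Trex1, Nlrx1, Usp18, Irf7, Adar, Samhd1 and Mlkl reached.

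Processing moved the sizes more than the directions of the 2 genes that rose. Under the 21 alternatives Trex1 stayed between log2 0.38 and 0.49 and passed in 20. Ddx58 stayed between log2 0.35 and 0.71 and passed in 10, with adjusted p up to 0.114. The alternatives overlap, so these counts are not of separate tests. For Ddx58, no background correction gave log2 0.3486 and each of the authors' 2 tables log2 0.3485. Without background correction Ddx58 rose by log2 0.35 and Trex1 by log2 0.40, which turns their order. Dhx58, Mavs, Mb21d1 and Zbp1 passed in 0 of the 21, with the smallest adjusted p at 0.202 (limma), and of them Dhx58 alone kept its sign in all.

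**Figure D4:**
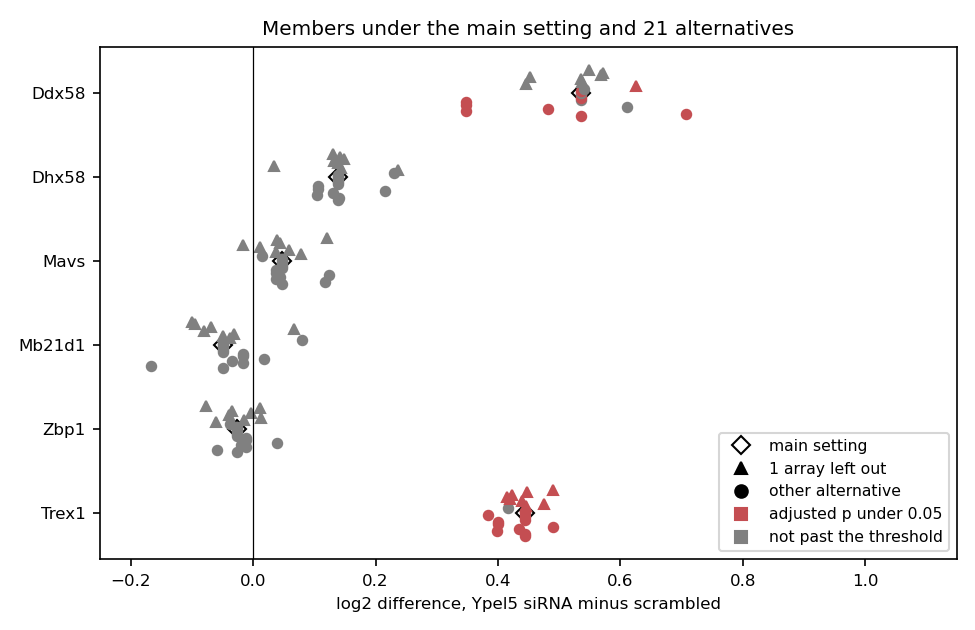
Log2 difference of each measured gene under the main setting (open diamonds), with 1 array left out (triangles) and under the other alternatives (circles), in red where the limma adjusted p was under 0.05. Trex1 is red in 20 of 21 alternatives and Ddx58 in 10. The other 4 genes stay grey, Mavs, Mb21d1 and Zbp1 around 0 and Dhx58 above it, between log2 0.03 and 0.24.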

How the data were processed

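Per the labels' protocols, DNase-treated RNA was turned into biotinylated cRNA for Illumina bead arrays, which by their titles share 1 chip. The authors deposited, per the file headers, a linear intensity and a detection p-value for each probe and array, and a table of normalized log2 values, which the series value table repeats. The submitters' processing notes name RMA, without a version.

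Here the function neqc (limma 3.58.1, R 4.3.3, offset 16) corrected the background, with negative controls inferred from the detection p-values, and then applied quantile normalization. A probe was kept where its detection p was below 0.05 on 4 or more arrays, and a gene was read by its brightest kept probe. Source names gave the groups and descriptions the replicate numbers. The source names carry other replicate numbers, which repeat within a group, so every replicate number here is that of the descriptions. The groups were tested by moderated linear models (limma) over 8145 genes, and single values by exact permutation. Names were updated through RefSeq (GRCm38.p6). The authors' build and probe sequences are not given in the sources used here. Precision is limited by the number of arrays. Genes named are the 8 members, list genes past the threshold, the 2 smallest p of each subgroup, Ypel5, Ifnb1 and Rsad2, and the 3 genes most like each member. Atrip and single marker genes fall outside this rule and were chosen after their values were seen. The members and lists were chosen with earlier results of these data known, so no list is independent evidence. Ifnb1 was detected on 0 arrays. Alternatives changed the block, background, offset, normalization, filter, probes, variance model and arrays.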

Additional observations from a re-analysis of the deposited data

How the results depend on the processing

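Over all genes, 241 were called higher and 163 lower. The counts were 79 and 28 with a replicate block on the numbers of the descriptions, 103 and 37 with a replicate block on those of the source names, 380 and 291 without background correction and with both tables of the authors' log2 values, 111 and 33 without a detection filter, 432 and 342 with a robust variance trend, and 56 and 12 without both replicate 1 arrays. With one median per array 30 were lower, and 87.2% of calls were higher in place of 59.7%. That share was between 73.6% and 82.4% with either block, without the filter and without replicate 1. With 1 array left out, 132 to 175 were higher and 53 to 100 lower.

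Members called higher (2) became 1 with one median per array, without a filter and with every kept probe as a feature, 0 without both replicate 1 arrays, and 1 to 2 with 1 array left out. In the setting with 0, limma gave adjusted p of 0.0540 for Ddx58 and 0.0750 for Trex1, both under an unadjusted 0.05. No member was lower under any of these settings. The 6 partner genes called higher became 2 and 3 with the blocks, 3 without a filter, 10 with the robust trend, 1 (Irf7) without replicate 1, and 4 to 5 with 1 array left out. Without background correction, with both tables of the authors' log2 values and with the stricter filter they were 8, Eif2ak2 and Fadd being added. With one median per array and with the mean of the probes they were 4, and with every kept probe as a feature 5. Sec61b was called lower (1 gene) with the mean of the probes and with the robust trend. The settings without arrays hold fewer samples, and the setting without a filter holds more tests. What moved the counts was not tested in any setting.

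With single arrays left out, Zbp1 ran from log2 -0.0763 to 0.0123, Mb21d1 from -0.1001 to 0.0672 and Mavs from -0.0163 to 0.1204. Signs turned for Zbp1 (log2 0.0392 with one median per array, 0.0123 without scrambled replicate 3, 0.0118 without Ypel5 siRNA replicate 3), Mb21d1 (log2 0.017 with one median per array, 0.0791 without both replicate 1 arrays, 0.0672 without Ypel5 siRNA replicate 1) and Mavs (log2 -0.0163 without Ypel5 siRNA replicate 1). With one median per array the median log2 difference over all genes was itself 0.0366, and the values given are not corrected for it. The numbers were not taken as pairs, since the labels do not say what a number shares. Same-numbered arrays of the descriptions deviated together in 1 of 4 pairs only (correlations 0.038, -0.0034, -0.00077 and 0.18), and 3 of the 8 arrays correlated best with their own number. With the block on the source names' numbers Mb21d1 was at log2 -0.17 and Ddx58 at 0.71. With the block on the descriptions' numbers Ddx58 and Trex1 kept their calls (adjusted p = 0.0373 and 0.0338). Detection limits Ifih1 and the dim Zbp1 probe, which lay near background.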

Other observations

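Motifs were also looked for in the promoters of the 6 partner genes that rose. Windows of the same length were at hand for 5 of them, Usp18 having none. A match to GAAANGAAA stood in 1 of the 3 windows of Adar, and those of Irf7, Nlrx1, Samhd1 and Mlkl held neither motif.

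In normalized values the array of Ypel5 siRNA replicate 1 stood apart for 2 members in opposite directions. It was the lowest of its group for Mb21d1, by 0.817 of the group's range, and the highest for Ddx58, by 0.805, and neither was past Dixon's 95% limit for a group of 4. Before normalization the Mb21d1 probe read 287 on this array, within the 271 to 313 of its group.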
